A study of Homo sapiens with 15 samples.

Results

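The 10 genes described here encode mucins and other secretory or surface products of lung epithelium, and 1 transcription factor of the lung lineage. They are MUC1, MUC5AC, MUC5B, MUC16, SFTPB, AGR2, CEACAM6, SLPI, LCN2 and NKX2-1. They were chosen by name, under a rule that uses no measured level but with earlier results of these data known, from the 60649 human genes of a count table that also holds 56941 mouse genes. RNA was sequenced from 15 tumours grown from A549 cells under the skin of BALB/c nude mice; A549 is a cell line established from a human lung adenocarcinoma. The 5 no-stress mice were not restrained. The 5 stress mice were restrained before transplantation, with 7 days given in the labels, and the 5 post-stress mice after it, with 12 days given. The labels do not say whether these days are a duration or an onset, and give no mouse age or sex. All groups share the cell line, the site and the host, and nude mice lack mature T cells but keep other host cells. One tumour per library is labelled, and nothing in the labels states how cages or handling days were shared.

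Gel-forming mucins such as MUC5B and MUC5AC are very large secreted glycoproteins that are packed in granules and swell into mucus. Transmembrane mucins such as MUC1 and MUC16 stay on the apical surface and shed their outer part. AGR2 is an endoplasmic reticulum protein that helps mucins fold, CEACAM6 is a lipid-anchored adhesion molecule, SLPI inhibits neutrophil proteases and LCN2 binds bacterial siderophores. SFTPB is a surfactant protein of alveolar type 2 cells, and NKX2-1 is the transcription factor that maintains the lung lineage and drives surfactant genes.

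The upstream sequences of the 3 members with the highest fitted log2 fold changes in the stress group are printed to show the DNA before their annotated starts. They come from the promoter table of RefSeq (GRCh38.p14), which matched 7 of the 10 members, read 5′ to 3′ on the strand of the gene and limited to bases outside annotated exons. The stretches are chr1:155192917-155193165 on the minus strand for MUC1, chr19:41755280-41755420 on the plus strand for CEACAM6 and chr19:9065752-9066001 on the minus strand for MUC16. They lie before the start that RefSeq gives. That start differs from the GENCODE 29 gene coordinates given below, only slightly for MUC1 and widely for CEACAM6 and MUC16. The CEACAM6 stretch lies inside the GENCODE gene, and the MUC16 stretch lies well beyond its GENCODE start. Which start these tumours use was not tested.
MUC1: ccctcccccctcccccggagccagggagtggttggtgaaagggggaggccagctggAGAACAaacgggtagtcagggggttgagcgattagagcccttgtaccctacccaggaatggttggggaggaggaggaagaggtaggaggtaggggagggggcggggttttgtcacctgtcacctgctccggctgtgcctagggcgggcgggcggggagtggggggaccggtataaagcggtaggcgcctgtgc
CEACAM6: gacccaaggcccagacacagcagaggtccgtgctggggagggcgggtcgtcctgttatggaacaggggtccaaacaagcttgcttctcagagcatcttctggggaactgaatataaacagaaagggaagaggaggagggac
MUC16: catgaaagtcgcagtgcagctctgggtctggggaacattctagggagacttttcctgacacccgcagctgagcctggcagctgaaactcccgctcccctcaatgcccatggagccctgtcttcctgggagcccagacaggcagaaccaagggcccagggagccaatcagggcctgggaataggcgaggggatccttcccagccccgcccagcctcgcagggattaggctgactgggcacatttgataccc
Capitals mark the 1 match found among 8 motif groups searched on both strands. The motifs were STAT (TTCNNNGAA), AP-1 (TGANTCA), CRE (TGACGTCA), the hypoxia core (ACGTG or GCGTG), NF-kB (GGGNNTTCC, or the same with 1 more T), C/EBP (TTGCNNAA), FOXA (TGTTTAC or TGTTTGC) and the core of the glucocorticoid receptor element (AGAACA). The match is that core in MUC1, 194 to 189 bases before the start. In the stretch of the same position and length, 12.4% of 27305 promoters hold those letters. No motif of the 8 groups was found in the CEACAM6 or MUC16 stretch.

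Libraries held between 16729091 and 19680449 counts, of which 12877165 to 15892705 were human. The mouse share of counts was 22.6% ± 6.65 without stress, 21.0% ± 2.34 in stress and 17.6% ± 4.93 in post-stress tumours (SD, n = 5 each), and it was highest in no-stress replicates 1 and 5, at 30.2% and 29.0%. Levels are given as CPM, each gene's human counts scaled to a common library size, so the mouse share does not enter them directly. A549 markers were high, with KRT8 at a mean of 3691 CPM and AKR1B10 at 3970 CPM, although the keratin KRT19 had 91 counts in all libraries together. Among 11 human leukocyte markers some were near 0, with 6 counts of PTPRC, 2 of CD3E and 1 of MPO over all 15 libraries. Others were not, and 3 of the 11 passed the filter on low counts, CD14 and ITGAM among them. Together the 11 had from 51 counts in stress replicate 2 to 139 in no-stress replicate 1. The summed level of the 11 human leukocyte markers ran from 4.30 to 10.1 CPM without stress, 3.44 to 4.92 CPM in stress and 4.01 to 9.86 CPM in post-stress tumours. That of the 11 stroma and endothelium markers ran from 194 to 451, 190.5 to 314 and 132 to 290.1 CPM in the same order. In bulk tumours, fewer cells that express a gene and less RNA per cell cannot be told apart.

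A549 xenografts expressed 8 of the 10 genes and gave almost no reads for SFTPB and NKX2-1. SFTPB had 5 counts over all 15 libraries, spread over stress replicates 3 and 5 and post-stress replicates 2 and 5. NKX2-1 had 1 count, in stress replicate 1. Both failed the filter on low counts and were not tested. Other surfactant proteins also had few counts over all libraries, 0 for SFTPA1, 12 for SFTPC and 42 for SFTPD. Of the whole list of 14 surfactant and alveolar type 2 genes, however, 6 passed the filter, with LPCAT1, a lipid enzyme, the most abundant at 55.7 CPM.

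Per kilobase of exon, mean levels over the 15 tumours ran in the order CEACAM6, AGR2, MUC5B, SLPI, MUC1, LCN2, MUC5AC and MUC16. CEACAM6 averaged 342 CPM per kb (93.9 to 744), AGR2 312 (212 to 497), MUC5B 169 (110.1 to 251) and SLPI 150.1 (98.3 to 200.5), and the ranges of neighbours among these 4 overlap, while those of AGR2 and SLPI do not meet. MUC1 averaged 21.8 CPM per kb (11.7 to 32.6), LCN2 7.29 (1.98 to 29.2), MUC5AC 1.35 (0.414 to 3.32) and MUC16 0.160 (0.0423 to 0.472). SLPI and MUC1 are the only neighbours in this order whose ranges over the 15 tumours do not meet. Lengths come from GENCODE 29, which may differ from the annotation the authors counted on, so these per-length levels are approximate. Together the members took 0.364% to 0.653% of human counts. MUC5B, at 0.212% to 0.473%, was the largest of them in each tumour.

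**Figure D1:**
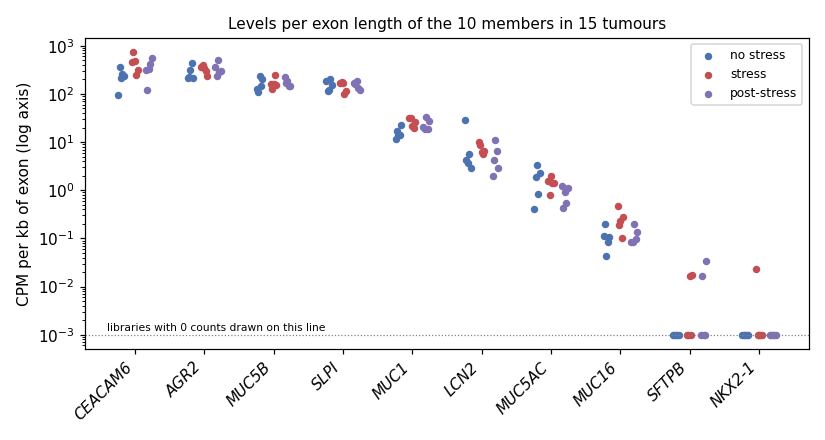
Levels of the 10 genes in CPM per kb of exon (log axis), each point 1 tumour, coloured by group, with libraries at 0 counts drawn on the dotted line. CEACAM6, AGR2, MUC5B and SLPI lie together at the top, MUC16 lies lowest of the 8 tested genes, and nearly all libraries are at 0 for SFTPB and NKX2-1.

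Stress was first set against no stress, the question being how tumour RNA differs when the host was restrained before transplantation. MUC1 was the only member called in it: 1 of 8 rose and 0 fell by edgeR's quasi-likelihood test at an adjusted p under 0.05. Over all 15435 tested human genes, 10.5% were called, 5.23% higher and 5.23% lower, so 1 of 8 lies near the background. Without adjustment 3 members had a p under 0.05, namely MUC1, MUC16 and CEACAM6, all higher under stress. The same share over all tested genes was not computed and is at least the 10.5% called after adjustment. Counts at an unadjusted p, here and below, therefore have no background to be read against. The median log2 fold change of the 8 members was 0.14, against -0.01 over all tested genes.

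MUC1 lies on chromosome 1 (hg38, 155185824 to 155192916, minus strand). In no-stress replicates 1 to 5 it stood at 55.1, 79.9, 66.9, 64.6 and 106 CPM. In stress replicates it stood at 147, 147, 99.8, 94.5 and 121 CPM. All 5 stress tumours were above the no-stress mean and 3 of 5 above the highest no-stress tumour, while the groups overlapped through no-stress replicate 5. Group means were 74.6 ± 19.8 and 122 ± 24.9 CPM (SD, n = 5), a log2 fold change of 0.71 (SE 0.20, edgeR adjusted p = 0.0391), or 1.63-fold. The call did not hold when some single tumours were left out. It was lost without no-stress replicate 1, 2, 3 or 4 or stress replicate 1, 2 or 5 (edgeR adjusted p up to 0.102). The log2 fold change itself ran from 0.62 to 0.87 when 1 tumour was left out. The call was also lost with no filter on low counts (edgeR adjusted p = 0.120), with the mouse share as a covariate (0.0509) and without no-stress replicates 1 and 5 together (0.0527).

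MUC16, known as the antigen CA125, lies on chromosome 19 (8848844 to 8981342, minus strand). Its no-stress values were 4.91, 8.63, 1.85, 3.72 and 4.60 CPM. Its stress values were 20.7, 8.14, 10.0, 4.52 and 12.1 CPM. Stress replicate 1 was highest of all tumours and 3 of 5 stress tumours exceeded every no-stress tumour, while stress replicates 2 and 4 lay inside the no-stress range. The log2 fold change was 1.22 (SE 0.42, edgeR adjusted p = 0.0753), which did not pass. It passed with DESeq2 (adjusted p = 0.0147), without no-stress replicate 2 (0.0334) and without stress replicate 4 (0.0298).

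CEACAM6 lies on chromosome 19 (41750977 to 41772208, plus strand). It stood at 286, 1098, 643, 790 and 703 CPM without stress. Under stress it stood at 1393, 2271, 1476, 765 and 949 CPM. Stress replicates 1 to 3 exceeded every no-stress tumour and the other two did not. The means, 704 ± 292 and 1371 ± 584 CPM, differed by 0.96 in log2 (SE 0.42, edgeR adjusted p = 0.163), which did not pass. CEACAM5, its close relative on the same chromosome and near-identical in parts, gave 1.18 (edgeR adjusted p = 0.146; 0.0431 without no-stress replicate 2), and reads of the pair can be split between them.

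**Figure D2:**
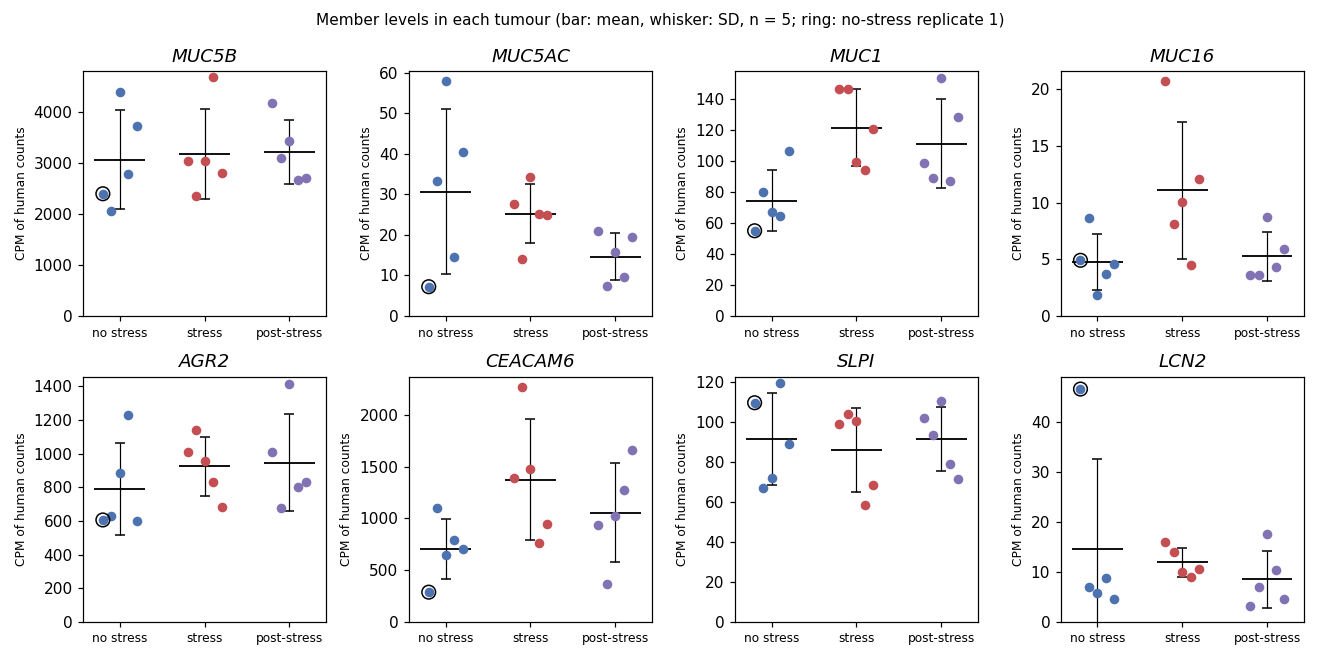
CPM of human counts for the 8 tested members, each point 1 tumour, with the mean as a bar and the SD as a whisker (n = 5 per group, not drawn below 0), and a ring round no-stress replicate 1. MUC1 shows the no-stress group mostly below the stress group, and LCN2 shows 1 no-stress tumour at 46.6 CPM far above the other tumours of its group.

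The gel-forming mucins differed in their spread between tumours, with a coefficient of variation over all 15 of 24.6% for MUC5B and 58.7% for MUC5AC. MUC5B lies on chromosome 11 (1223066 to 1262172, plus strand), just after MUC5AC (1157953 to 1201138, plus strand). An antisense gene, MUC5B-AS1, lies within MUC5B, and strand use in the counting is not given, so its reads cannot be separated from MUC5B.

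MUC5B stood at 2394, 2047, 4378, 2778 and 3711 CPM without stress. In stress tumours it stood at 3027, 2355, 3040, 4671 and 2791 CPM. In post-stress tumours it stood at 4166, 3086, 3431, 2669 and 2704 CPM. All 3 groups covered much the same range, with means of 3061 ± 963, 3177 ± 880 and 3211 ± 618 CPM. The edgeR log2 fold changes against no stress were 0.05 (SE 0.21, adjusted p = 0.906) in stress and 0.07 (SE 0.21, adjusted p = 0.914) in post-stress tumours.

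MUC5AC stood at 7.22, 33.3, 57.9, 14.5 and 40.3 CPM without stress. In stress tumours it stood at 27.7, 14.0, 34.3, 25.2 and 24.9 CPM. In post-stress tumours it stood at 20.9, 7.51, 15.7, 9.68 and 19.6 CPM. The no-stress group alone spanned all other values, from 7.22 to 57.9 CPM. Post-stress against no stress gave a log2 fold change of -1.06 (SE 0.48, edgeR adjusted p = 0.316), and stress against no stress gave -0.29 (edgeR adjusted p = 0.753). The ratio of MUC5B to MUC5AC counts ran from 61.4 to 411 with a median of 168. Repeated coding sequence in mucins makes their counts less certain than those of other genes.

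AGR2 on chromosome 7 (16791811 to 16833433, minus strand) stood at 606, 630, 888, 1231 and 602 CPM without stress, at 1009, 1141, 959, 831 and 685 CPM in stress and at 1009, 675, 1414, 799 and 831 CPM in post-stress tumours. The groups overlapped throughout. Log2 fold changes were 0.22 (edgeR adjusted p = 0.578) for stress and 0.26 (edgeR adjusted p = 0.646) for post-stress against no stress.

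SLPI on chromosome 20 (45252239 to 45254564, minus strand) had like means in the 3 groups. Its means were 91.3 ± 22.9 CPM without stress, 85.9 ± 20.9 CPM in stress and 91.2 ± 16.0 CPM in post-stress tumours (SD, n = 5). Over all 15 tumours it ran from 58.6 CPM in stress replicate 4 to 119 CPM in no-stress replicate 4. Neither difference from no stress passed (edgeR adjusted p = 0.822 and 0.997).

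LCN2 on chromosome 9 (128149071 to 128153455, plus strand) turned on 1 tumour. No-stress replicate 1 stood at 46.6 CPM and the other 4 no-stress tumours at 6.90, 5.75, 8.87 and 4.60 CPM. Stress tumours stood at 16.0, 14.0, 9.95, 8.91 and 10.6 CPM, each above those 4. Post-stress tumours stood at 3.17, 6.90, 17.6, 10.3 and 4.55 CPM. With all tumours, stress against no stress gave a log2 fold change of -0.29 (SE 0.63, edgeR adjusted p = 0.819). Without no-stress replicate 1 it turned to 0.87 (edgeR adjusted p = 0.243), and post-stress against no stress turned from -0.77 to 0.39 (edgeR adjusted p = 0.793).

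The tumour with the highest LCN2 also had the highest mouse share and the highest summed leukocyte marker level, 10.1 CPM. S100A8 and S100A9, which encode the calprotectin subunits and were picked after their values were seen, stood there at 597 and 728 CPM. In no-stress replicate 5, which has a mouse share of 29.0%, they stood at 370 and 571 CPM, while LCN2 was at its group's lowest value, 4.60 CPM. The part of host or other cells in the LCN2 value was not tested.

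The comparison of post-stress with no stress asks the same of restraint after transplantation. None of the 8 tested members was called by edgeR, against 0.842% of all tested human genes, 0.596% higher and 0.246% lower. At an unadjusted p under 0.05 there were 2, MUC1 and MUC5AC, and DESeq2 called 0. Post-stress tumours held MUC1 at 98.9, 89.1, 154, 87.1 and 129 CPM, with 2 of 5 above the highest no-stress tumour and 5 of 5 above the no-stress mean. The MUC1 log2 fold change was 0.58 (SE 0.20, edgeR adjusted p = 0.189). CEACAM6 gave 0.58 (SE 0.42, edgeR adjusted p = 0.549) from values of 938, 363, 1020, 1277 and 1663 CPM. MUC16, at 3.65, 3.62, 8.75, 4.34 and 5.91 CPM, gave 0.15 (edgeR adjusted p = 0.907). The stress and post-stress comparisons share the same 5 no-stress tumours, so their members' values are not independent of each other.

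Stress and post-stress tumours were also compared directly. EdgeR called none of the 8 members, against 0.0389% of all tested human genes, 0.0259% higher and 0.013% lower. Of the members, only MUC16 had an unadjusted p under 0.05, and DESeq2 called 0. The MUC16 log2 fold change was 1.07 (SE 0.42, edgeR adjusted p = 0.333), with 3 of 5 stress tumours above the highest post-stress tumour. MUC5AC gave 0.78 (SE 0.48, edgeR adjusted p = 0.584) and MUC1 0.13 (SE 0.20, edgeR adjusted p = 0.857). The MUC1 difference from no stress was therefore not shown to differ between the restrained groups.

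**Figure D3:**
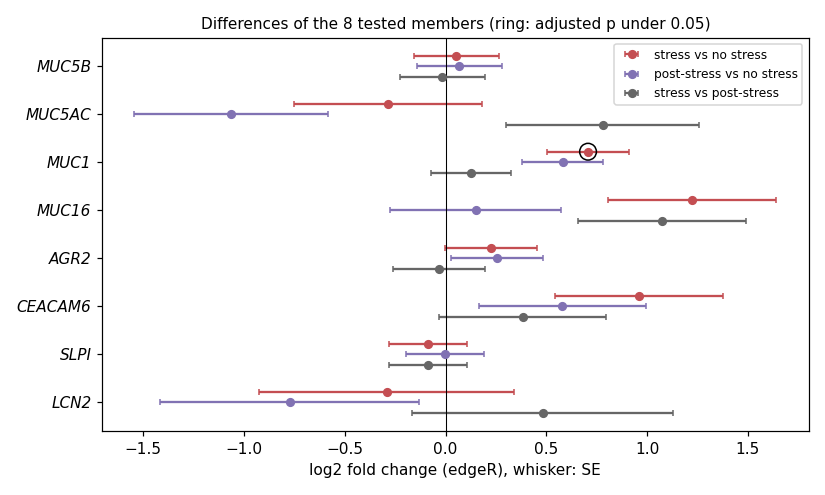
Log2 fold changes of the 8 tested members from edgeR (points) with their SE (whiskers) in the 3 comparisons, and a ring at adjusted p under 0.05. The 1 ring is MUC1 in stress against no stress at 0.71, and the MUC5B and SLPI points all lie near 0.

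Genes related to the members were read from lists by role. Of 14 other mucins 3 were tested, and 1 rose in stress against no stress. Over all tested genes 5.23% were called higher, a share that 3 genes are too few to be compared with. The gene was MUC12, a transmembrane mucin, with a log2 fold change of 1.10 (SE 0.29, edgeR adjusted p = 0.0236). Every stress tumour was above every no-stress tumour, but narrowly, with 1.39 CPM in stress replicate 2 and 1.36 CPM in no-stress replicate 3. MUC12 had 11 to 54 counts per library. How many of all tested genes separate in this way was not computed. MUC12 lost the call without no-stress replicates 1 and 5 together (edgeR adjusted p = 0.139), and without no-stress replicate 1 or stress replicate 1 or 3 (up to 0.0770). MUC13, the most abundant of these, gave -0.37 (edgeR adjusted p = 0.143), and MUC3A, picked after its values were seen, gave 1.36 (edgeR adjusted p = 0.0624) and passed without no-stress replicate 2 or 5 or post-stress replicate 5. MUC3A also passed with DESeq2 (adjusted p = 0.0223), limma-voom (0.0354) and the replicate block (0.0416). MUC13 passed without stress replicate 3 (edgeR adjusted p = 0.0352).

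Of 18 club and goblet cell genes 10 were tested and 1 rose under stress, near the 5.23% called higher over all tested genes. This was BPIFA1, a secreted airway defence protein, which had 6 counts in the no-stress group, all in replicate 5, and 165 in the stress group. Its log2 fold change was 4.63 (SE 0.94, edgeR adjusted p = 0.00824), a value that depends on few counts. In stress tumours it stood at 1.13, 1.04, 5.71, 2.43 and 0.986 CPM, low in each. The call held in all 15 fits that left out 1 tumour, though those without a post-stress tumour keep both compared groups whole. The fitted BPIFA1 log2 fold change ran there from 3.94 without stress replicate 3 to 8.04 without no-stress replicate 5, where the no-stress group has no count and the value is no bound.

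Of 22 transcription factors of secretory epithelium 20 were tested, and 2 rose and 1 fell under stress, near the 10.5% called over all tested genes. CREB3L1, a membrane-bound factor of secretory cells, rose by 1.01 in log2 (SE 0.26, edgeR adjusted p = 0.0219). CEBPB, a factor of the acute-phase response, rose by 0.83 (SE 0.22, edgeR adjusted p = 0.0271). EHF, an ETS factor of epithelia, fell by 0.58 (SE 0.13, edgeR adjusted p = 0.00919), with 4 of 5 stress tumours below the lowest no-stress tumour. The EHF call held in all 15 fits that left out 1 tumour, though those without a post-stress tumour keep both compared groups whole. CREB3L1 lost its call without no-stress replicate 1 or 3 or stress replicate 2 (edgeR adjusted p up to 0.0635). CEBPB lost it without no-stress replicate 1, 2, 3 or 4 or stress replicate 1 or 5 (up to 0.0646) and with no filter (0.0858).

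The other lists had no call in stress against no stress by edgeR. They were surfactant and alveolar genes (6 of 14 tested), other CEACAM genes (4 of 11), epithelial defence genes (10 of 20), mucin O-glycosylation (21 of 26) and granule exocytosis (8 of 9). At an unadjusted p under 0.05 they held 1, 2, 4, 4 and 1 genes. Their most abundant members were LPCAT1 at 55.7 CPM, CEACAM5 at 126 CPM, C3 at 1528 CPM, GALNT10 at 393 CPM and MARCKS at 190 CPM. C1GALT1C1, the chaperone of the core 1 enzyme that extends O-glycans, had 6 counts in all libraries. In the other 2 comparisons no gene of any list passed with edgeR, while DESeq2 called 5 in post-stress against no stress. MUC12 and CREB3L1 were among these 5 (DESeq2 adjusted p = 0.0280 and 0.0209). DESeq2 also called more of all tested human genes there than edgeR did, as given below. The 5 were not set against that share. For MUC12 in post-stress against no stress edgeR gave 1.06 in log2 (adjusted p = 0.0905). All 5 post-stress tumours were above every no-stress tumour, but at low counts. The nearest were 1.72 CPM (25 counts) in post-stress replicate 1 and 1.36 CPM (22 counts) in no-stress replicate 3. How many of all tested genes separate in this way was not computed here either. CREB3L1 gave 0.94 (edgeR adjusted p = 0.0983). Stress against post-stress gave 0.04 for MUC12 and 0.07 for CREB3L1, so neither rise was shown to differ between the restrained groups.

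Of the 15 A549 markers 14 were tested and 2 fell under stress, while 5.23% were called lower over all tested genes. Among the 2 was ALDH3A1, an aldehyde dehydrogenase, which fell by 0.53 in log2 (SE 0.16, edgeR adjusted p = 0.0440). ALDH3A1 lost its call without no-stress replicate 1, 2, 3 or 4, stress replicate 1, 2, 3 or 5 or post-stress replicate 2 or 4 (edgeR adjusted p up to 0.130), with no filter (0.0982), with the library size of all counts (0.0751) and without no-stress replicates 1 and 5 together (0.109). None of the 3 tested leukocyte markers of 11, or of the 7 tested stroma and endothelium markers of 11, was called by edgeR, with 0 and 1 at an unadjusted p under 0.05.

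Across tumours, 8 relations to the mouse share and 28 between members were computed by permutation. For AGR2 and the mouse share Pearson's r was -0.66 (permutation p = 0.00716, adjusted 0.0573) and Spearman's rho = -0.68 (permutation p = 0.00723, adjusted 0.0578), so it did not pass the adjustment. With group means subtracted r was -0.65. Without no-stress replicates 1 and 5, the 2 tumours farthest from the median share, r was -0.47 (permutation p = 0.109), so the relation rests in part on them. SLPI lay farthest from 0 in that setting, with r = -0.58 (permutation p = 0.0385, adjusted 0.292), which did not pass the adjustment. With all 15 tumours the SLPI r was -0.21.

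Between members, 6 of 28 pairs had an unadjusted Pearson p under 0.05 with group means subtracted, and 0 passed the adjustment. The pair farthest from 0 was MUC5AC and LCN2, with r = -0.72 (permutation p = 0.00289, adjusted 0.0809) and rho = -0.78 (permutation p adjusted 0.0291). Without the 2 tumours farthest from the MUC5AC median, r was -0.46 (permutation p = 0.108) and rho was -0.68 (permutation p = 0.0140, adjusted 0.392), so the linear relation rests on them and the rank relation less so. MUC5B and MUC16 gave r = -0.60, MUC1 and MUC16 0.55, AGR2 and SLPI 0.54, MUC1 and CEACAM6 0.53, and MUC5AC and MUC5B 0.52.

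**Figure D4:**
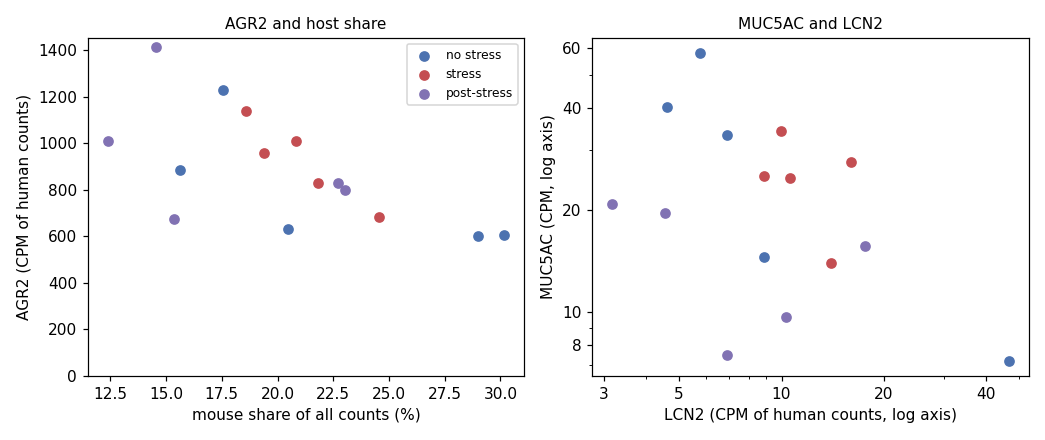
Left, AGR2 (CPM of human counts) against the mouse share of all counts (%), and right, MUC5AC against LCN2 (both CPM, log axes), each point 1 of 15 tumours coloured by group. AGR2 is low in the 2 tumours with mouse shares near 30%, and LCN2 is highest where MUC5AC is lowest, in no-stress replicate 1.

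For each member the 3 tested human genes with the most similar log2 CPM over the 15 tumours were listed by Pearson's r, as a description with no p. MUC1 was followed most closely by MAP3K5 (0.93), ANO7 (0.90) and CREB3L1 (0.90). CEACAM6 was nearest to PLCB4 (0.95), PERP (0.94) and CAPN5 (0.93), and MUC16 to HSH2D (0.91), PARP10 (0.89) and XAF1 (0.89). AGR2 was nearest to TSPAN13 (0.89), SPDEF (0.89) and KDELR3 (0.88). SLPI was nearest to MRPL44 (0.85), PRDX6 (0.82) and SKP1 (0.81), and MUC5B to RNF187 (0.83), EVI5L (0.79) and RPL34P18 (0.78). LCN2 was nearest to ARV1 (0.81), C1R (0.78) and RIBC2 (0.75), and MUC5AC to MAPK10 (0.80), RUNDC1 (0.79) and DMRTA1 (0.76). All points share libraries, and these genes are the top of 15435, picked for their r.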

How the data were processed

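The deposited table holds raw counts per gene. Per the submitters' processing notes, the authors used Trimmomatic 0.39, HISAT2 2.2.1 and featureCounts 2.0.6 with the builds hg38 and mm10. Strand setting, annotation release and the treatment of reads that fit both genomes were not given in these sources. The columns Control, Pre and Post were taken as no stress, stress and post-stress. Human genes were fitted alone: filterByExpr, TMM, and 1 edgeR 4.0.16 quasi-likelihood fit (robust; R 4.3.3, limma 3.58.1) over 15 libraries, with Benjamini-Hochberg adjustment over 15435 genes and calls at 0.05. An SE is the log2 fold change divided by the square root of F. Correlations used log2 CPM (prior count 2) and 100000 permutations. The script was tested on simulated data. P-values measure the spread between labelled tumours, which may be technical. Alternatives included DESeq2 1.42.0 and leaving out each tumour.

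The members and lists were chosen with earlier results of these data known. Named were all members, up to 3 called genes per list by smallest p, the most abundant gene of a list with no call, and 3 nearest patterns per member. 1 gene that this rule names is not reported here. Leaving out no-stress replicates 1 and 5 together was chosen after seeing the data.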

Additional observations from a re-analysis of the deposited data

Results flagged for a closer look

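3 values stood apart from the rest of their group of 5 by Dixon's criterion (0.71), among 51 groups examined; chance flags about 1 in 20. LCN2 was 46.6 CPM in no-stress replicate 1, with 4.60 to 8.87 CPM in the other tumours of the group. BPIFA1 was 0.445 CPM in no-stress replicate 5 and had no count in the other no-stress tumours. With the others at 0 the criterion flags any value above 0, so this flag carries no information. ALDH3A1 was 3299 CPM in stress replicate 4, above the other stress tumours, which ran from 2071 to 2419 CPM.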

How the results depend on the processing

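Of 600 member fold changes under alternatives, 541 kept their direction and side of the threshold, 46 changed sign, 10 lost a call and 3 gained one. All 10 losses were of MUC1 in stress against no stress, the only member call. The other member fold changes had no call to lose, so the 541 does not measure how stable that call is. Causes of the changes in sign and call were not tested. Members called in stress against no stress numbered 2 with DESeq2's Wald test and 0 with no filter, with the mouse share as a covariate and without no-stress replicates 1 and 5 together. Genes called in the related lists in that comparison (5) numbered 13 with DESeq2 and 8 with only the 2 groups compared. In post-stress against no stress (0) they numbered 5 with DESeq2 and 1 with no filter. The share of all tested genes that DESeq2 called in stress against no stress is not given here. Its 2 members and 13 related genes therefore have no background to be read against.

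Human genes called in stress against no stress (1615) fell to 1070 with the library size of all counts and 546 without no-stress replicates 1 and 5. In post-stress against no stress (130) they numbered 504 with DESeq2, 49 with only the 2 groups, 38 with the covariate, 86 with the size of all counts and 32 without those replicates. In stress against post-stress (6) they numbered 203 with DESeq2, 36 with no filter, 1 with only the 2 groups, 0 with the covariate and 3 with the size of all counts.

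Replicate numbers were not shown to pair the tumours: same-numbered tumours' deviations correlated at -0.19 to 0.12. Differently numbered tumours were not set beside them, so a shared cage or handling day cannot be judged from these values. The fit with a replicate block called 990, 57 and 0 human genes in the 3 comparisons, MUC1 kept its call (edgeR adjusted p = 0.0464), MUC12 and ALDH3A1 lost theirs, MUC3A gained one, and LCN2 in stress against no stress turned to 0.12.

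Leaving out 1 tumour at a time, human genes called ran from 661 (without no-stress replicate 1) to 1834 (without stress replicate 4) in stress against no stress, from 37 (without no-stress replicate 1) to 144 in post-stress against no stress and from 0 to 189 (without stress replicate 4) in stress against post-stress. Members called in stress against no stress ran from 0 to 2, and related genes called from 2 to 11, and from 0 to 1 in post-stress against no stress.

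Signs changed mainly where a log2 fold change lay near 0. LCN2 in stress against no stress became 0.29 with limma-voom, 0.12 with the covariate and 0.73 without no-stress replicates 1 and 5, where post-stress against no stress became 0.25. SLPI in post-stress against no stress became 0.0046 with DESeq2 size factors, 0.0042 with its Wald test, 0.017 with limma-voom, 0.010 with no filter, 0.0045 with a CPM filter, 0.0051 with only the 2 groups, 0.052 with the size of all counts and 0.083 without those replicates. With the covariate, MUC5B became -0.054 in post-stress against no stress and 0.079 in stress against post-stress, and AGR2 0.15 in the latter. MUC12 in stress against post-stress became -0.050 with limma-voom and -0.0038 with the size of all counts.

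In stress against no stress without 1 tumour each, log2 fold changes that changed sign ran for MUC5AC from -0.53 to 0.085, MUC5B from -0.12 to 0.22, SLPI from -0.18 to 0.029 and LCN2 from -0.51 to 0.87. In post-stress against no stress without 1 tumour each, log2 fold changes that changed sign ran for MUC5B from -0.039 to 0.24, MUC16 from -0.11 to 0.49, SLPI from -0.088 to 0.11, LCN2 from -1.22 to 0.39 and ALDH3A1 from -0.20 to 0.038. In stress against post-stress without 1 tumour each, log2 fold changes that changed sign ran for MUC5B from -0.20 to 0.092, AGR2 from -0.14 to 0.16, SLPI from -0.17 to 0.020, MUC12 from -0.20 to 0.19, MUC13 from -0.19 to 0.055 and CREB3L1 from -0.092 to 0.31.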
